A study of Homo sapiens with 3 samples.

Results

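The comparison described here sets the RNA-seq library of HCT116 cells transfected with an siRNA against CDK4 beside the library of untreated HCT116 cells. Its members are all genes of the deposited count table with a mean of at least 1 CPM, the read count scaled to library size, over the 3 libraries of the series, which were 12694 of 48162 entries. The siRNA cells were collected 24 hours after transfection, and the untreated cells had neither siRNA nor drug. A palbociclib library, from cells given an inhibitor of CDK4 and CDK6 for the same time, entered the level threshold and the normalisation and is cited beside some results. Its ratios are over the same untreated library, so both comparisons share that library. HCT116 is an established human colon cancer line, so both groups share its genotype. Each group is 1 culture and 1 library, so no p-value was computed, and a difference between these libraries has no replicate check. Neither a non-targeting siRNA nor transfection reagent alone is among the libraries analysed here, so effects of CDK4 mRNA loss, of transfection and of the culture cannot be told apart. The sources used here give no siRNA sequence, number of duplexes or dose.

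CDK4 is a kinase that binds D-type cyclins and phosphorylates the retinoblastoma protein family in the G1 phase of the cell cycle, which releases E2F transcription factors. An siRNA is a short RNA duplex of which the guide strand, held by an Argonaute protein, directs cleavage of a fully complementary mRNA. The guide can also pair through its seed, the bases near its 5′ end, with short complementary sites in the 3′ untranslated region (3′ UTR) of other mRNAs, which can lower those mRNAs modestly.

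The libraries held 18349355 reads for CDK4 siRNA and 20313597 reads for untreated cells. Markers of intestinal epithelium summed to 3647 CPM in the siRNA library and 3858 CPM in the untreated library. Of 8 such markers, 6 had reads with siRNA and 5 without, led by the keratin gene KRT8, while CDX1 and VIL1 had none. Blood and endothelial markers had at most 10 reads each in either library. Among fibroblast markers COL1A1 alone had reads.

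The siRNA target was lower in the siRNA library. CDK4 had 1059 reads or 53.8 CPM (50.6 to 57.1) with siRNA and 2689 reads or 128 CPM (123 to 133) in untreated cells. The ratio was 0.42 (0.391 to 0.451). Here and below, brackets hold exact 95% intervals that cover counting error only, since reads were not collapsed to molecules. The partner kinase gene CDK6 was also lower, with 86.9 CPM in siRNA cells and 112 CPM in untreated cells, a ratio of 0.779 (0.732 to 0.83). CCND1, which encodes cyclin D1, was at 1.04 (1.02 to 1.07), and RB1, which encodes the retinoblastoma protein, was at 1.02 (0.94 to 1.11).

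Most genes lay close to their untreated level. The log2 ratios of siRNA over untreated, taken after adding a prior count of 2, had a median of −0.02 with quartiles of −0.15 and 0.15. Of the 12694 genes, 10334 (81.4%) lay between 20% lower and 25% higher. The robust standard deviation of these log2 ratios was 0.22, and that of palbociclib over the same untreated library was 0.809.

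Depth was large enough for small shifts to exceed counting error in many genes. The counting interval lay above 1 for 2246 genes (17.7%) and below 1 for 3011 genes (23.7%). When the level also had to be at least 25% higher or at least 20% lower, which is a ratio of 0.8 or less, 1036 genes (8.16%) were higher and 608 genes (4.79%) were lower in the siRNA library. At 2-fold, 140 genes (1.1%) were higher and 15 genes (0.118%) were lower. Intervals below 1 thus outnumbered those above 1, while at both larger shifts the higher genes outnumbered the lower. The first of these turned round with total-count scaling, which gave 3086 intervals above 1 and 1999 below.

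The split between genes 25% higher and 20% lower depended on scaling and on level. It was 1387 higher and 353 lower with total-count scaling, and 886 higher and 866 lower with median-of-ratios size factors. Among the 7239 genes with a mean of at least 20 CPM it was 303 higher and 276 lower, so the excess of higher calls lay among genes below 20 CPM. The 35468 entries below the level threshold summed to 41590 reads in the siRNA library and 35263 reads in the untreated library, a ratio of 1.26 (1.24 to 1.28). Of those entries, 8524 had reads with siRNA and 7322 without.

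Ratios followed the base composition of the genes. Across 12052 genes with a known GC content, Spearman's correlation between the log2 ratio and GC content was 0.329, and it was 0.409 among genes of at least 20 CPM. All these genes share the same 2 libraries and are not independent replicates. Genes in the lowest GC quintile had a median log2 ratio of −0.09 and those in the highest quintile had 0.10. The quintiles between them had medians of −0.09, −0.05 and 0.02, so most of the slope lay among the GC-richer genes. Of the GC-poorest genes 8.0% were 20% lower and 2.74% were 25% higher, while of the GC-richest 1.37% were lower and 16.3% were higher by these measures. For palbociclib over untreated this correlation was 0.0578.

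Length and level showed weaker relations. Spearman's correlation was 0.049 with gene length and −0.191 with mean level. From the lowest to the highest level quintile the medians were 0.12, 0.02, −0.03, −0.05 and −0.06. Low counts also widen the spread, and the quartiles of the lowest quintile were −0.16 and 0.41.

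Gene types differed as well. The 68 genes that GENCODE 29 types as antisense had a median log2 ratio of 0.19, with 18 intervals above 1 and 1 below. These are 26.5% above and 1.47% below, against 17.7% and 23.7% of all genes. In the lowest level quintile the shares were 14.7% and 4.53%. Long intergenic non-coding RNAs had a median of 0.10 over 61 genes. The 83 transcribed unprocessed pseudogenes, which are gene duplicates that are transcribed, had a median of 0.27, and 33.7% of them were at least 25% higher. That share was 8.16% over all genes and 14.7% in the lowest level quintile. In contrast, 140 processed pseudogenes, which are reverse-transcribed copies of mRNAs, had a median of −0.07, and the 11586 protein-coding genes had −0.03.

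These gene types are mostly expressed at low levels, where protein-coding genes had a higher median too. In the lowest level quintile the median was 0.15 for 322 genes of types other than protein coding and 0.11 for 1760 protein-coding genes. In the next quintile the medians were 0.07 over 87 genes and 0.01 over 2339 genes. The strand setting of the counting is not given in the sources used here, so reads of an antisense gene and of its partner cannot be told apart, and reads can be split between pseudogenes and their parent genes.

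**Figure D1:**
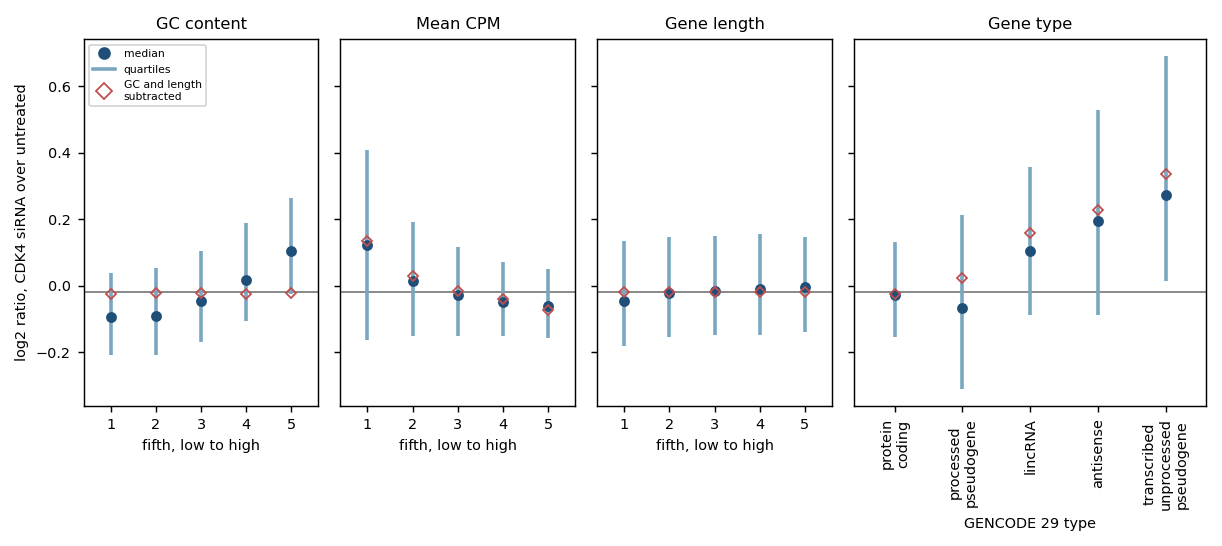
Log2 ratios of CDK4 siRNA over untreated (vertical axis) by quintile of GC content, mean CPM and gene length and by gene type. Filled points are medians, lines join the quartiles, open diamonds are medians with GC and length trends removed, and the grey line is the median of all genes. Medians climb to 0.10 in the GC-richest quintile and to 0.12 in the lowest level quintile, while length has little relation.

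Gene classes were compared over 78 lists, of which 74 had at least 8 genes above the level threshold. Each list is described by its median log2 ratio beside the median of all genes (−0.02) and by how many members had a counting interval on 1 side of 1. List medians ran between −0.20 and 0.26. They were below 0 in 51 lists and above 0 in 23, which with total-count scaling became 39 and 35. Of all genes 17.7% had an interval above 1 and 23.7% below 1, but in the highest level quintile, where deep counts make intervals narrow, these shares were 21.7% and 47.5%. Because GC content moved with the ratios, each median is also given after trends with GC content and gene length were subtracted across all genes. That subtraction moved 12 of the 74 medians to the other side of the all-gene median. The part of base composition in the shifts was otherwise not tested.

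**Figure D2:**
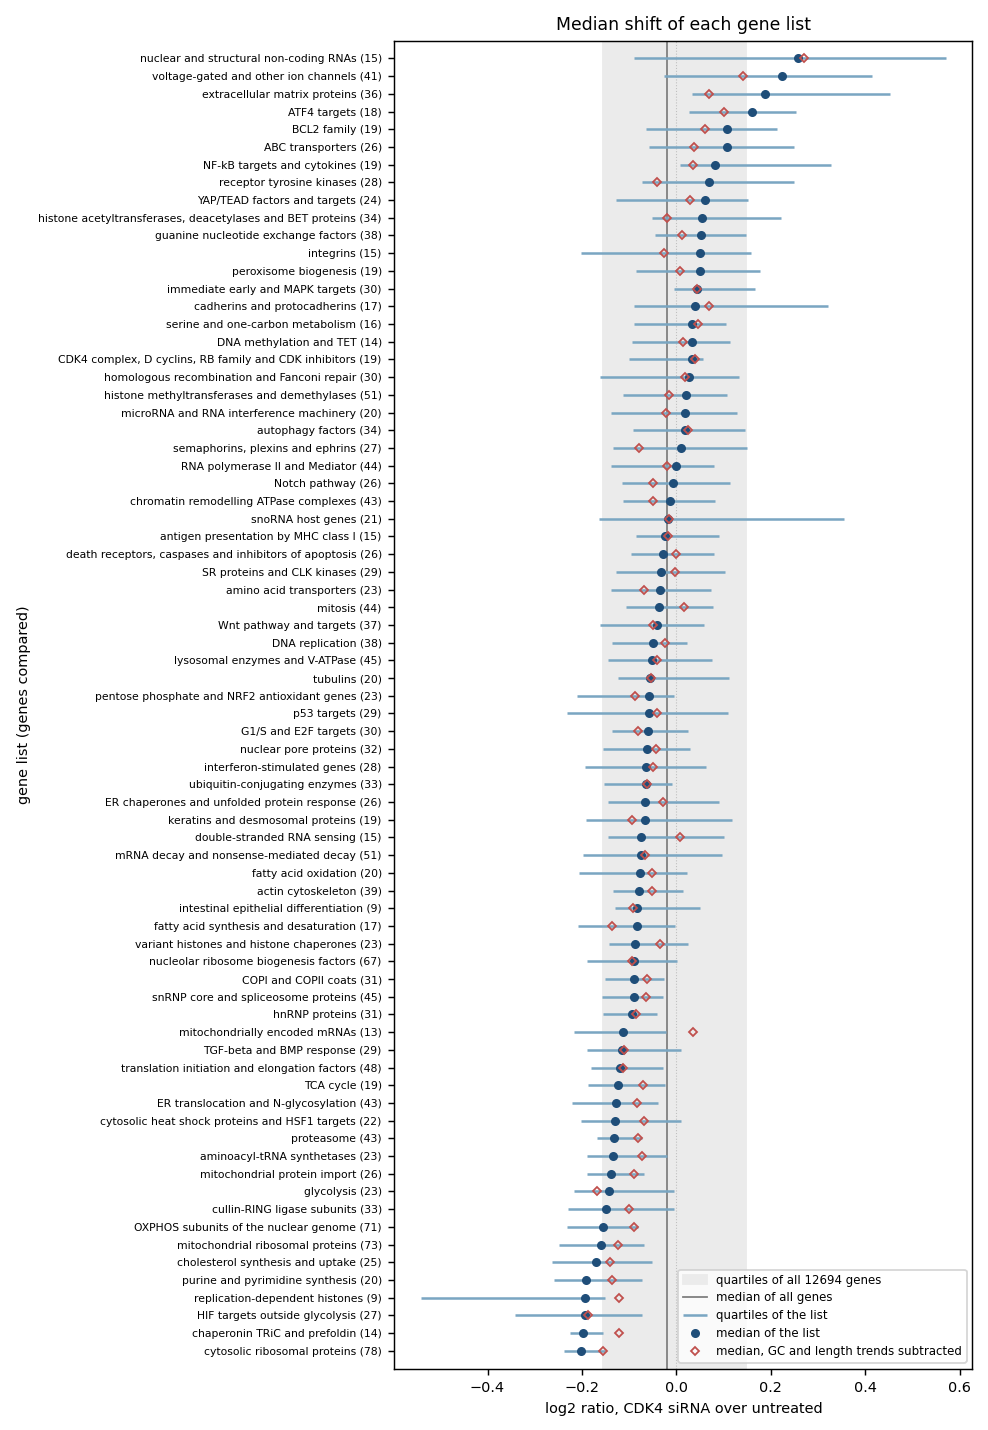
Median log2 ratio of CDK4 siRNA over untreated for the 74 lists, highest at the top, with the number of genes compared in brackets. Filled points are medians, lines join the quartiles of the members, open diamonds are medians after GC and length trends were subtracted, the grey band spans the quartiles of all genes and the grey line is their median of −0.02. Nuclear non-coding RNAs, ion channels and matrix proteins are at the top, and ribosomal protein genes at the bottom.

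The lowest list median was that of cytosolic ribosomal proteins, the protein parts of the ribosome. Of 78 genes, 77 had a log2 ratio below 0, and 73 had an interval below 1 with none above 1. The share below 1 was 93.6%, against 47.5% of all genes in the highest level quintile. The median log2 ratio was −0.20 with quartiles of −0.24 and −0.15, or −0.15 after GC and length trends were subtracted. Yet 4 of the 78 were at least 20% lower, against 4.79% of all genes, so the class shifted together by a small step. Summed over the class, the siRNA library held 59498 CPM and the untreated library 66950 CPM, a ratio of 0.889 (0.887 to 0.891).

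The leading members among genes of at least 5 CPM were RPL23A, RPS13 and RPL15. RPL23A had 777 reads with siRNA and 1129 reads without, a ratio of 0.734 (0.669 to 0.805). RPS13 had 5668 reads in the siRNA library and 7702 in the untreated library, a ratio of 0.785 (0.758 to 0.812). RPL15 had 11769 and 15882 reads in the same order, a ratio of 0.79 (0.771 to 0.809). All 3 intervals lay well below 1. The lowest ratio of all, 0.384 for RPS10, came from 18 reads with siRNA and 50 without, and the 1 gene above 0, RPL17, had 44 and 40. Ribosomal protein genes have many near-identical pseudogenes, so the counting could split their reads. When the trend with level was subtracted too, a choice made after the data were seen, the class median was −0.07.

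Most ribosomal protein mRNAs start with a terminal oligopyrimidine (TOP) run, through which their translation is controlled by the mTOR pathway. The windows below are shown to compare starts of the lowest and highest members. They hold 20 bases before and 10 from the RefSeq start (GRCh38.p14), 5′ to 3′ on the gene's strand, and capitals mark a run of a C followed by at least 4 bases that are C or T at the start.
RPS13, chr11:17077658-17077687, minus strand, ratio 0.785: ggcgtttccactctcgctctCCTTTCgttg
RPL15, chr3:23916525-23916554, plus strand, ratio 0.79: ccctgggcgctggggcctgctggaggagct
RPS27, chr1:153990742-153990771, plus strand, ratio 0.807: gcaggatttccgctttcgctCCTTTCCggc
RPL28, chr19:55385912-55385941, plus strand, ratio 0.963: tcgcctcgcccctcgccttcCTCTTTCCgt
RPL18, chr19:48619169-48619198, minus strand, ratio 0.979: cgcccaccccagcccgttctCTCTTTCCgg
EEF2, chr19:3985454-3985483, minus strand, ratio 0.979: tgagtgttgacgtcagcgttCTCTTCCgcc

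Low and high members both carry the run, and the low member RPL15 has none in this window. Of 63 ribosomal protein genes matched to a RefSeq start, 42 (66.7%) had it, against 4.01% of all 27305 promoters, read on the transcribed strand only. The log2 ratios of those with the run had a median of −0.21 and those of the other 21 had −0.19. Translation initiation and elongation factor genes with the run had a median of −0.15 over 10 genes and those without had −0.13 over 28. Among all other genes the medians were −0.04 for 461 with a run and −0.02 for 8848 without. The ratios thus differed more between ribosomal protein genes and other genes than between genes with and without the run.

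Other parts of the protein production and quality control machinery had small shifts in the same direction. The chaperonin TRiC folds actin and tubulin, and prefoldin delivers proteins to it. Of their 14 genes, 12 had an interval below 1 and none above, none was 20% lower, and the median log2 ratio was −0.20, or −0.12 with GC and length trends subtracted. The share of intervals below 1 was 85.7%, against 47.5% of all genes in the highest level quintile. The 8 TRiC subunit genes had ratios between 0.847 for CCT5 and 0.927 for CCT4. TCP1, CCT2, CCT3, CCT6A, CCT7 and CCT8 lay between them at 0.882, 0.867, 0.855, 0.856, 0.882 and 0.872. Among prefoldin genes VBP1 had 87.7 CPM with siRNA and 107 CPM in untreated cells, a ratio of 0.822 (0.772 to 0.876), and PFDN4 was at 0.839 (0.75 to 0.938). PFDN1 and PFDN2 were at 0.872 and 0.903, and the intervals of PFDN5 at 0.964 and PFDN6 at 1.04 included 1. With GC, length and level trends subtracted, the median was −0.05.

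Mitochondrial ribosomal protein genes had a median log2 ratio of −0.16 over 73 genes, with 44 intervals below 1 and 1 above. Nuclear genes of oxidative phosphorylation had −0.16 over 71 genes, with 45 below and 3 above. The shares below 1 were 60.3% and 63.4% in that order, against 33.1% of all genes in the second-highest level quintile. Proteasome genes had −0.13 over 43 genes, with 30 below (against 47.5% of all genes in the highest level quintile) and 1 above, and none of these 43 was 20% lower. With GC and length trends subtracted the 3 medians were −0.12, −0.09 and −0.08, and with the level trend as well −0.09, −0.05 and −0.03. Translation factor genes had −0.12 over 48 genes, with 32 intervals below 1 and 3 above. Their share below 1 was 66.7%, against the same 47.5% of the highest level quintile. Nucleolar ribosome biogenesis factors had −0.09 over 67, with 32 intervals below 1 and 5 above. Their share below 1 was 47.8%, near the 47.5% of all genes in the highest level quintile. With GC, length and level trends subtracted the medians were −0.04 for translation factors and −0.05 for nucleolar factors.

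Messenger RNAs of the mitochondrial genome did not move as 1 block. The median log2 ratio over 13 such genes was −0.11, with 9 intervals below 1 and 3 above. These are 69.2% and 23.1%, against 47.5% and 21.7% of all genes in the highest level quintile. MT-ND2 had 37905 reads with siRNA and 50287 reads without, a ratio of 0.804, and MT-ND1 was at 0.807. MT-ND6, the 1 mRNA of the light strand, was at 1.08 with 12262 and 12105 reads. The median changed sign to 0.03 when GC and length trends were subtracted.

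Genes of purine and pyrimidine synthesis, which supply nucleotides, were lower by a similar step. Of 20 genes, 15 had an interval below 1 and 1 above. The share below 1 was 75%, against 47.5% of all genes in the highest level quintile. The median log2 ratio was −0.19, or −0.14 with GC and length trends subtracted and −0.10 with the level trend as well. PRPS1, which makes the ribose phosphate donor PRPP, had 71.9 CPM with siRNA and 92.0 CPM without, a ratio of 0.782 (0.73 to 0.838). IMPDH2, the main inosine monophosphate dehydrogenase, was at 0.797 (0.774 to 0.82), and the CTP synthase gene CTPS2 at 0.814 (0.708 to 0.936). The salvage enzyme gene HPRT1 was at 1.06 (0.973 to 1.16). The 1 gene with an interval above 1 was ADSSL1, an adenylosuccinate synthase gene, with 47 reads in the siRNA library and 29 in the untreated library, a ratio of 1.73 (1.07 to 2.85).

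Genes of cholesterol synthesis and uptake had a median log2 ratio of −0.17 over 25 genes, or −0.14 with the trends subtracted. Here 15 intervals lay below 1, 1 above, and 4 genes were 20% lower, against 4.79% of all genes. The share below 1 was 60%, against 33.1% of all genes in the second-highest level quintile and 47.5% in the highest. INSIG1, which retains the sterol sensor complex in the endoplasmic reticulum and is itself a sterol-regulated gene, had 42.9 CPM with siRNA and 67.1 CPM without, a ratio of 0.639 (0.586 to 0.696). FDFT1, the squalene synthase gene, was at 0.78 (0.738 to 0.823) and CYP51A1 at 0.781 (0.618 to 0.986). FDPS, with 79 reads in the siRNA library and 75 in the untreated library, went against the class at 1.12 (0.808 to 1.56). At 4.01 and 3.57 CPM in that order, FDPS reached the mean of 5 CPM used for naming only through the palbociclib library. The palbociclib library stood on the other side, with a class median of 1.71 over the same untreated library and INSIG1 at 11.2.

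Promoters of this class were searched for letters known from sterol genes in the RefSeq windows of 250 bases before to 50 after the start, on both strands. CCAAT was found in 15 of 18 matched promoters (83.3%), against 35.6% of all 27305. The sterol element letters TCACNCCAC were found in 1 of 18, against 1.17% of all. These matches describe the class and were not set against the ratios.

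Targets of hypoxia-inducible factors (HIF) other than glycolysis genes had a median log2 ratio of −0.19 over 27 genes, and it stayed at −0.19 with GC and length trends subtracted. Of these, 15 had an interval below 1 and none above, and 8 were at least 20% lower, against 4.79% of all genes. The share below 1 was 55.6%, against 23.7% of all genes. With the level trend subtracted as well the median was −0.17. BHLHE40, a transcriptional repressor, had 275 reads with siRNA and 458 without, a ratio of 0.64 (0.549 to 0.745). ANGPTL4, a lipoprotein lipase inhibitor, was at 0.674 (0.55 to 0.825), and the mitophagy receptor gene BNIP3L at 0.709 (0.619 to 0.812). LOXL2, a lysyl oxidase of the matrix, went against the class at 1.17 (0.996 to 1.36). VEGFA, the classical HIF target, was at 0.99 with 795 and 856 reads, so the class did not shift in all its members.

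The glycolysis list had a median of −0.14 over 23 genes, or −0.17 with the trends subtracted. It held 15 intervals below 1 and 2 above. The share below 1 was 65.2%, against 47.5% of all genes in the highest level quintile. LDHA, the lactate dehydrogenase gene, had 17910 reads with siRNA and 23598 without, a ratio of 0.809, while the glucose transporter gene SLC2A1 was at 1.01.

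Replication-dependent histone genes, whose mRNAs mostly end in a stem-loop in place of a poly(A) tail, had few reads. Only 9 passed the level threshold, with a median log2 ratio of −0.19, or −0.12 with GC and length trends subtracted and −0.31 with the level trend as well. There were 3 intervals below 1 among the 9, against 23.7% of all genes. HIST1H2BK had 180 reads in the siRNA library and 361 in the untreated library, a ratio of 0.532 (0.442 to 0.637). HIST1H2BD, with 36 and 76 reads in that order, was at 0.505 (0.33 to 0.76). HIST1H1C was at 0.683 (0.524 to 0.886). The intervals of HIST1H2AC, HIST1H2AG, HIST1H4C, HIST2H2BE, HIST1H1E and HIST3H2A all included 1, at ratios between 0.838 and 1.09. Histone genes have near-identical copies, and the counting could divide reads among them.

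Among classes with higher medians, nuclear and structural non-coding RNAs were first, with a median log2 ratio of 0.26 over 15 genes and 0.27 with GC and length trends subtracted. Of them 7 had an interval above 1 and 1 below, against 17.7% and 23.7% of all genes. NEAT1, the scaffold RNA of paraspeckles, had 944 reads or 47.9 CPM with siRNA and 357 reads or 17.0 CPM without, a ratio of 2.82 (2.49 to 3.19). MALAT1, a nuclear speckle RNA, had 112 CPM in siRNA cells and 64.5 CPM in untreated cells, a ratio of 1.74 (1.63 to 1.86). Both are retained in the nucleus.

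Not all members were higher. SNORD3A was at 1.31 (0.592 to 2.97) from 16 and 13 reads, and JPX went against the class at 0.878 (0.694 to 1.11). At 0.812 and 0.619 CPM, SNORD3A reached the mean of 5 CPM used for naming only through the palbociclib library. The RNA component of RNase P, RPPH1, had 6 reads with siRNA and 25 without. TUG1 was at 1.00 and OIP5-AS1 at 0.95, so the class median of 0.26 rests on members that differ widely.

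Host genes of small nucleolar RNAs had a median of −0.02, the same as all genes to 2 decimals. Of 16 hosts not typed as protein coding, 6 had an interval above 1 and 2 below, and of 5 protein-coding hosts 1 had one above and 3 below. SNHG12 had 328 reads with siRNA and 182 without, a ratio of 1.92. SNHG15 was at 1.42, SNHG1 at 1.41, SNHG3 at 1.41 and GAS5 at 1.28, all with intervals above 1. These 5 hosts have spliced transcripts without a long reading frame, and several are known targets of nonsense-mediated decay. The protein-coding hosts EEF1B2 and GNB2L1 were at 0.856 and 0.861 with intervals below 1. The non-coding host SNHG16 was at 0.857 and the protein-coding host TAF1D at 1.28. These hosts were named after their values were seen.

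Ion channel genes had a median log2 ratio of 0.22 over 41 genes, with 18 intervals above 1 and 3 below. Over all genes 17.7% lay above 1 and 23.7% below. Of the 41, 11 were at least 25% higher, against 8.16% of all genes. That share was 13.2% in the second-lowest level quintile and 16.3% in the GC-richest quintile. CLCN7, the lysosomal chloride transporter gene, had 1340 reads in siRNA cells and 987 in untreated cells, a ratio of 1.45 (1.33 to 1.57). The T-type calcium channel gene CACNA1H was at 1.42 (1.3 to 1.54) and the potassium channel gene KCNC4 at 1.49 (1.18 to 1.89). KCNS3 went against the class at 0.781 (0.626 to 0.972). The class has a median GC content of 58.8%, against 49.2% over all genes, and a median level of 9.46 CPM, against 26.7 CPM. Its median was 0.14 with GC and length trends subtracted, and 0.07 with the level trend subtracted as well.

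Extracellular matrix genes had a median of 0.19 over 36 genes, with 16 intervals above 1 and 1 below. The share above 1 was 44.4%, against 17.7% of all genes and 38.9% of the GC-richest quintile. Of the 36, 10 were at least 25% higher, against 8.16% of all genes and 16.3% of the GC-richest quintile. LAMA5, which encodes the laminin α5 chain of epithelial basement membranes, had 3495 reads or 177 CPM with siRNA and 1652 reads or 78.7 CPM without, a ratio of 2.26 (2.13 to 2.39). AGRN, the heparan sulfate proteoglycan agrin, was at 1.54 (1.46 to 1.63). TNXB, the tenascin-X gene, was at 3.73 (2.43 to 5.90) from 98 and 28 reads, and part of its sequence is shared with a pseudogene. At 4.97 and 1.33 CPM, TNXB reached the mean of 5 CPM used for naming only through the palbociclib library. COL12A1 went against the class at 0.92 (0.852 to 0.994).

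Matrix genes are both GC-rich, with a median GC content of 61.2%, and low, with a median level of 12.3 CPM. The class median was 0.07 with GC and length trends subtracted and 0.02 with the level trend as well, close to that of all genes. LAMA5 itself kept a log2 ratio of 0.93 with GC and length trends subtracted. The laminin chains did not move together, since LAMB1, LAMC1 and LAMA3 were at 0.984, 0.964 and 1.02. The fibroblast marker COL1A1, a matrix gene, had 434 reads with siRNA and 310 without, while the other 4 fibroblast markers had none in either library.

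Targets of ATF4, the transcription factor of the integrated stress response, had a median log2 ratio of 0.16 over 18 genes, or 0.10 with the trends subtracted. Here 10 intervals lay above 1 and 3 below, against 17.7% and 23.7% of all genes. DDIT3, which encodes the stress factor CHOP, had 92 reads with siRNA and 43 without, a ratio of 2.28 (1.57 to 3.36). At 4.67 and 2.05 CPM in that order, DDIT3 reached the mean of 5 CPM used for naming only through the palbociclib library. ADM2 was at 1.35 (1.1 to 1.66) and PCK2, a mitochondrial gluconeogenic enzyme gene, at 1.24 (1.1 to 1.41). ATF4 itself was at 1.19 with 7436 and 6676 reads. DDIT4, an mTOR inhibitor gene that also stands in the HIF list, was at 0.807 (0.723 to 0.9), and ASNS, the asparagine synthetase gene, at 0.906.

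Genes of the BCL2 family, which control the mitochondrial step of apoptosis, had a median of 0.11 over 19 genes, or 0.06 with the trends subtracted. Of them 6 had an interval above 1 and 3 below, against 17.7% and 23.7% of all genes. PMAIP1, which encodes the pro-apoptotic protein NOXA, had 44.5 CPM in siRNA cells and 28.1 CPM in untreated cells, a ratio of 1.58 (1.42 to 1.76). BCL2L13 was at 1.32 (1.2 to 1.44) and the effector gene BAK1 at 1.3 (1.19 to 1.42). BCL2L11, which encodes the pro-apoptotic protein BIM, went against the class at 0.792 (0.69 to 0.909).

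ABC transporter genes had a median of 0.11 over 26 genes, with 9 intervals above 1 and 5 below, against 17.7% and 23.7% of all genes. ABCA7, a lipid transporter gene, had 57.9 CPM with siRNA and 32.9 CPM without, a ratio of 1.76 (1.6 to 1.93). ABCC3 was at 1.53 (1.26 to 1.86), ABCD4 at 1.5 (1.29 to 1.74), and the peroxisomal transporter gene ABCD3 at 0.806 (0.753 to 0.863). The class median was 0.04 with GC and length trends subtracted and 0.02 with level as well.

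**Figure D3:**
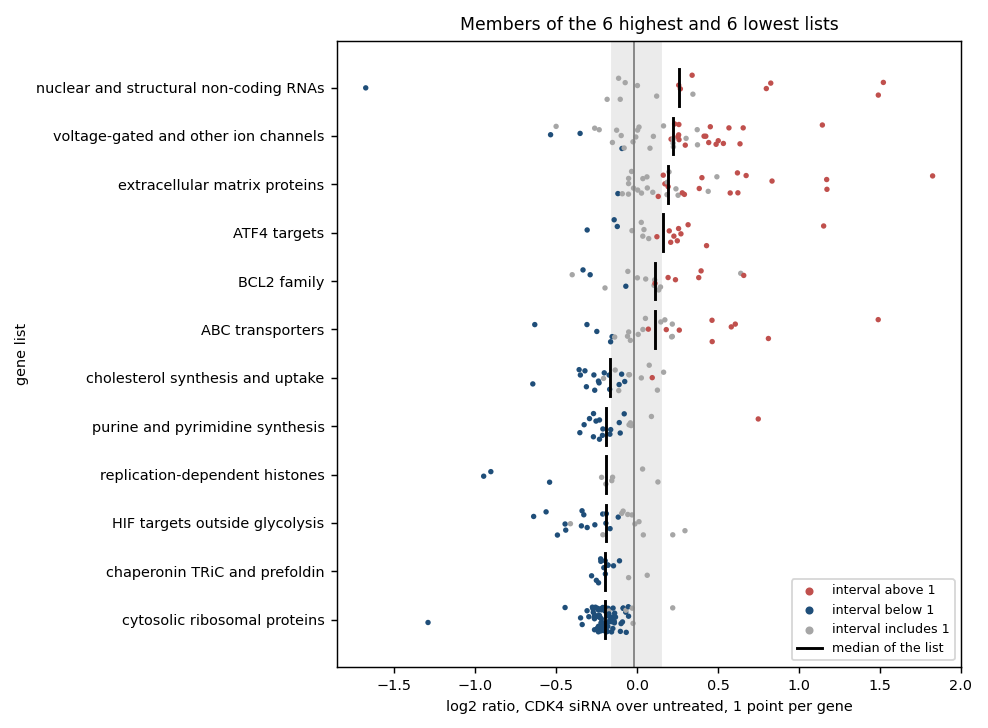
Log2 ratios of CDK4 siRNA over untreated for every member of the 6 lists with the highest and the 6 with the lowest median, 1 point per gene. Red points have a counting interval above 1, blue points below 1 and grey points include 1, black bars are list medians, and the grey band and line are the quartiles and median of all genes. Ribosomal protein and TRiC genes form narrow clusters left of the line, while the higher lists are wide and extend right.

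The lists of the cell cycle lay near the median of all genes. Medians were −0.06 for G1/S and E2F targets, −0.05 for DNA replication and −0.04 for mitosis, and none of their 30, 38 and 44 genes was 25% higher or 20% lower. In the list of the CDK4 complex and CDK inhibitors the median was 0.03 over 19 genes, and the 4 genes at least 20% lower were CDK4, CDK6, CDKN2B and CDKN1A. CDKN1A, which encodes the CDK inhibitor p21, had 271 CPM with siRNA and 385 CPM without, a ratio of 0.704 (0.68 to 0.729). Of 29 TGF-beta and BMP response genes 6 were 20% lower and 1 was 25% higher, and of 29 p53 targets 4 were lower and 3 higher, against 4.79% lower and 8.16% higher over all genes. In this comparison TP73 was at 1.15 (1.06 to 1.24), and TNFRSF10B, which encodes the TRAIL receptor DR5, had 112 CPM with siRNA and 62.7 CPM without, a ratio of 1.79 (1.67 to 1.92). In the palbociclib comparison TP73 was at 0.447 and TNFRSF10B at 3.38.

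Of single genes at a mean of at least 20 CPM, CDK4 had the lowest ratio and was the 1 gene past 2-fold in that direction. It was followed by LCLAT1, an acyltransferase gene of cardiolipin remodelling, with 457 reads in siRNA cells and 843 in untreated cells, a ratio of 0.578 (0.515 to 0.648). KLHL15, a substrate adaptor gene of a cullin ligase, was at 0.592 (0.523 to 0.669), and NCEH1, a cholesterol ester hydrolase gene, at 0.601 (0.522 to 0.691). The other genes of the 12 follow.

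These were the splicing-associated isomerase gene PPIL1 at 0.611, the gene of the RNA-binding protein FAM98A at 0.615, the zinc exporter gene SLC30A1 at 0.631, BTBD3 at 0.634, the Mediator subunit gene MED20 at 0.637, INSIG1 and BHLHE40. GSPT1, which encodes the translation termination factor eRF3a, had the most reads of the group with 3638 in siRNA cells and 6123 in untreated cells, a ratio of 0.633 (0.608 to 0.66).

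At the other end, 5 genes of at least 20 CPM were 2-fold higher. After NEAT1 came FSTL3, an activin-binding protein gene, with 47.0 CPM in siRNA cells and 20.1 CPM in untreated cells, a ratio of 2.34 (2.08 to 2.63). LAMA5, the hormone gene AMH at 2.16 (1.85 to 2.52) and RHPN1 at 2.13 (1.87 to 2.44) completed them. GIGYF1, H6PD, MAP3K3, MICALL2, KLF2, KLHL17 and B4GALNT4 followed, with ratios between 1.89 and 1.81. All 12 but NEAT1 have a GC content of at least 56.5%, and AMH reaches 73.1%. The level is a mean over all 3 libraries. AMH, H6PD and, among the 12 lowest, BHLHE40 reached 20 CPM only through the palbociclib library. AMH had 25.6 CPM with siRNA and 11.9 CPM without, and H6PD had 21.6 and 11.4 CPM. Palbociclib over untreated was 7.68 for AMH and 2.75 for H6PD.

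**Figure D4:**
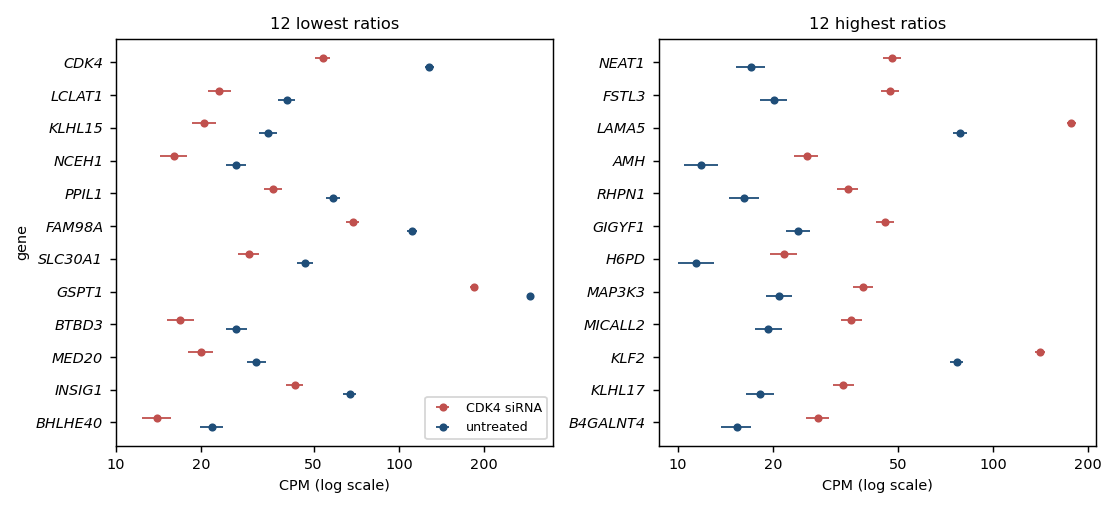
CPM (log scale) of the 12 genes with the lowest and the 12 with the highest ratio among genes with a mean of at least 20 CPM over the 3 libraries. Red points are the CDK4 siRNA library and blue points the untreated library, and bars are exact 95% Poisson intervals for counting error. The red and blue intervals do not overlap for any of the 24 genes.

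The 3′ UTRs of lower genes were searched for shared letters. In 7116 protein-coding genes of at least 20 CPM, CDK4 left out, each run of 7 bases (heptamer) carried in the 3′ UTR of at least 200 genes was ranked by the share of its carriers that were at least 20% lower. That gave 12513 heptamers. This measure was chosen after the data were seen, because a ranking by medians showed no comparable order, and nothing below is a test. Of all 7116 genes 3.82% were 20% lower, and the median heptamer had 5.06%.

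The first 3 heptamers in the ranking all occur in the CDK4 mRNA, on the sense strand, inside 1 stretch of 13 bases. CTACATA was first, with 63 of 581 carriers lower (10.8%). TCTTATC was second, with 64 of 644 (9.94%), and TCTACAT was next, with 74 of 759 (9.75%). The heptamer after them, CTTATCA with 9.39%, does not occur in the CDK4 transcript, but its first 6 bases do in the same stretch. The heptamers ranked 5 to 12 do not occur in the CDK4 transcript either. Their shares ran from 9.20% for GCCATAT to 8.82% for GCAATAC, so the shares fell in small steps after the first 3. The first 3 overlap each other and are not independent finds, and 13.2% of all 12513 heptamers occur somewhere in the CDK4 transcript. In the ranking of genes of at least 1 CPM the same 3 had ranks 1, 18 and 13 of 14076.

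The stretch is shown beside 3′ UTR sites of genes with low ratios because the ranking turns on its letters. It lies at bases 1243 to 1255 of the GENCODE 29 CDK4 transcript of 2076 bases, from chromosome 12, within the coding sequence of bases 367 to 1275. Capitals mark the 13 bases in the CDK4 line and the heptamer in the GENCODE 29 3′ UTR sites.
CDK4, transcript bases 1234 to 1263: ctgcagcacTCTTATCTACATAaggatgaa
LCLAT1, heptamer from 3′ UTR base 2565: acagttcCTACATAcgtttca
KLHL15, heptamer from 3′ UTR base 552: tgccttcTCTTATCcgcattg
FAM98A, heptamer from 3′ UTR base 1700: actgaaaTCTACATgacatga
SLC30A1, heptamer from 3′ UTR base 1675: ttaatatTCTTATCtgatatt
GSPT1, heptamer from 3′ UTR base 4597: tgcaaggTCTACATtttaagg
BTBD3, heptamer from 3′ UTR base 2671: tctaattTCTACATaattatt
MED20, heptamer from 3′ UTR base 929: tagaaccTCTTATCtgggcag

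The flanks around these sites differ from the flanks in CDK4. Among the 11 genes with the lowest ratios after CDK4, 7 carried at least 1 of the 3 heptamers in the 3′ UTR, while 21.0% of all 7116 genes did. These 11 are among the genes that ranked the heptamers, so this count follows in part from the selection. It was also not matched for length. The 3′ UTRs of the 11 ran from 989 bases in PPIL1 to 4994 in GSPT1. Among all genes in the tertile of longest 3′ UTRs, 1017 carried at least 1 of the 3 heptamers and 1355 carried none. In BTBD3 the first and the last of the ranked 3 overlap, since the base after TCTACAT is an a. NCEH1, PPIL1, INSIG1 and BHLHE40 carried none, and BHLHE40 is among the 11 only through its level in the palbociclib library. The sequence of the siRNA is not given in the sources used here, so whether it pairs with this stretch was not tested.

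The 3 heptamers were picked for the share of lower genes among their carriers, so the shares that follow describe the selection on the same genes and are no support for it. Of 1496 genes with any of the 3 heptamers in the 3′ UTR, 139 (9.29%) were 20% lower, against 133 of 5620 without (2.37%). For 25% higher the shares were 2.34% and 4.56%. Log2 ratio medians were −0.10 and −0.03, so the 2 sets differed little at their centre. The share was 7.96% with exactly 1 of the heptamers, 12.8% with 2 and 12.5% with 3, the last over 72 genes. Genes with a heptamer in the coding sequence only had 4.17%, and genes with none in either place had 2.02%.

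Carriers have longer and GC-poorer transcripts, so the shares were also taken within tertiles. From short to long 3′ UTRs they were 6.67%, 10.8% and 8.95% with a heptamer, against 1.80%, 2.37% and 3.32% without. From low to high GC content they were 11.5%, 6.56% and 3.2% with a heptamer, against 4.66%, 2.87% and 0.445% without. These shares come from the values that chose the heptamers, and no other heptamers were compared in this way. Carriers in the tertile of shortest 3′ UTRs were 90 genes and those of the highest GC content 125. In the palbociclib comparison of the same 7116 genes, 461 carriers (30.8%) and 1859 of the others (33.1%) were 20% lower. The 35.1% over all 12694 genes of at least 1 CPM is of a different set.

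**Figure D5:**
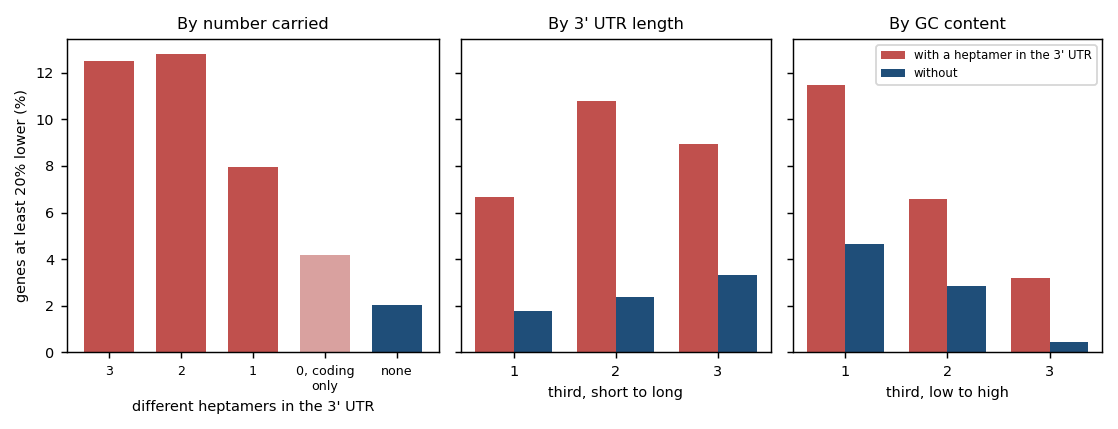
Percent of protein-coding genes of at least 20 CPM that were at least 20% lower in the CDK4 siRNA library than in the untreated library. Left, by how many of the 3 heptamers the 3′ UTR carries, or by their presence in the coding sequence only. Middle and right, genes with (red) and without (blue) a heptamer by tertile of 3′ UTR length and of GC content, where the red bar is the taller in each tertile.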

How the data were processed

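RNA was sequenced from 3 HCT116 cultures with 1 library each, and columns were matched to libraries by title. The authors deposited whole-number read counts per gene symbol and FPKM values, which are those counts rescaled by gene length and library total. The genome build hg19 and the tools DESeq and HTSeq 0.6.1 are named, with no role, per the submitters' processing notes. The sources used here do not give aligner, annotation or strand setting. Entries carrying a spreadsheet date held 0.201% of siRNA and 0.196% of untreated reads and are not named.

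With R 4.3.3, edgeR 4.0.16 computed TMM factors of 1.07 for siRNA and 1.03 for untreated. Genes were compared at a mean CPM of at least 1 over 3 libraries. Log2 ratios used a prior count of 2, and plain ratios none. Ratio intervals are exact Clopper-Pearson intervals at 95%, and CPM intervals are exact Poisson intervals. Both cover counting error only. With 1 library per group no test was possible. The calls of 25% higher, 20% lower and 2-fold use the log2 ratio with the prior count and need an interval on 1 side of 1. GC content, gene type, transcripts and 3′ UTRs came from GENCODE 29, matched by symbol or by a unique RefSeq synonym (12052 of 12694 genes), using the longest protein-coding transcript. Gene length came from the deposited FPKM. Trends were subtracted as the median of each of 20 separate bins of near-equal gene number, over 2 passes. The calculations were checked on simulated counts with known changes.

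The comparison, the gene lists and the named genes were chosen with earlier results of these data known. Named were the 3 leading members and the 1 furthest against (mean of 5 CPM or more) of the 6 highest and 6 lowest lists, all members of such lists under 15 genes, the 12 highest and 12 lowest genes with a mean of 20 CPM or more, and 8 fixed genes. Of these, 1 result is not reported here. Other genes were named after their values were seen. The means of 5 and 20 CPM were taken over all 3 libraries, so some named genes reached them only through palbociclib. DESeq2 1.42.0 gave the median-of-ratios factors among the alternatives.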

Additional observations from a re-analysis of the deposited data

How the results depend on the processing

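No paired analysis was possible because each group has 1 library. Alternatives were other scalings, low-count thresholds, prior counts, the deposited FPKM and subtracted trends. Over all alternatives 798 recomputed class medians stayed within the median of their members' counting bounds and 33 moved out of it. Another 4 changed sign although those bounds lay on 1 side of 0. For named genes, 1 recomputed value changed sign although its own interval excluded no change. Sign changes where the bounds included 0 were not counted apart. List medians below 0 numbered 51 in the report, 39 with total-count scaling and 59 with median-of-ratios size factors.
With total-count scaling the count of intervals below 1 was 1999 (3011 in the report), the 20% lower count 353 (608), the TRiC and prefoldin median −0.14, the ribosomal protein median −0.15, and the ratio of lower shares with over without a heptamer 6.19 (3.93). The deposited FPKM gave 1999, 348, −0.14 and −0.15, and 6 genes 2-fold lower (15). Upper-quartile scaling gave 1125 genes 25% higher and 542 lower. All-gene medians ran between −0.05 and 0.03 over the scalings. At a mean of at least 5 CPM, 33 genes were 2-fold higher (140) and 1 lower, and the median of the lowest minus the highest level quintile was 0.092 (0.19). Without a low-count threshold these were 436, 103 and 0.66. A prior count of 5 left 9 genes 2-fold lower. Subtracting GC and length trends gave −0.12 for TRiC and prefoldin, −0.15 for ribosomal proteins, 0.034 for mitochondrially encoded mRNAs (−0.11) and 0.00083 for the highest minus the lowest GC quintile (0.20), which its construction sets near 0.

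Subtracting the level trend too, an alternative added after the data were seen, gave 680 genes 25% higher, 81 genes 2-fold higher and 39 lower. Medians were −0.052 for TRiC and prefoldin, −0.070 for ribosomal proteins, 0.13 for mitochondrially encoded mRNAs, 0.0018 for actin cytoskeleton (−0.08) and 0.012 for variant histones and histone chaperones (−0.09). CCT4 was at 0.060 (−0.11), and the GC and level quintile differences were 0.0044 and 0. The count of 20% lower genes was 650. The heptamer shares were recomputed under alternatives that were also added, and their ratio ran between 2.67 and 6.19. Other causes of these moves were not tested. With 1 library per group, culture, transfection and library preparation cannot be told apart from the siRNA, and depth limits the low genes, where 112 of the 140 genes 2-fold higher lie in the lowest level quintile.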
